A study of Homo sapiens with 6 samples.

Results

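The CDK inhibitor genes CDKN1A, CDKN1B, CDKN1C, CDKN2A, CDKN2B, CDKN2C, CDKN2D and CDKN3 were examined in YCC3 cells, a human gastric cancer cell line, after silencing of CTNNB1, the gene of beta-catenin. A gene was measured if the array held a row whose only annotated symbol was that gene, and the brightest row would have been taken if there had been several. Of the 8 genes, 7 were measured, each through 1 row, out of 18417 genes in all. CDKN2C had no row named for it in the annotation and was not analysed here. No filter on dim signals was applied, so all 7 rows entered the comparison.

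Both groups were YCC3 cells with no other genetic change given in the labels: 3 samples were transfected with CTNNB1 siRNA and 3 with a non-targeting control siRNA. RNA was taken 48 hours after transfection and read on Affymetrix Human Gene 1.0 ST arrays, 1 array per sample. The labels call the arrays biological replicates but do not say whether they came from separate cultures or were transfected on separate days, so p-values cover only the spread among these 6 samples, which may be technical. All 6 arrays come from 1 cell line, the labels do not name the siRNA sequences, and no second CTNNB1 siRNA is labelled.

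Cyclin-dependent kinases (CDKs) drive the cell cycle when bound to cyclins, and CDK inhibitors hold them back. The CIP/KIP proteins, encoded by CDKN1A (p21), CDKN1B (p27) and CDKN1C (p57), bind cyclin-CDK complexes and restrain CDK2 in particular. The INK4 proteins, encoded by CDKN2A (p16), CDKN2B (p15), CDKN2C (p18) and CDKN2D (p19), bind CDK4 and CDK6 and keep cyclin D away from them, which leaves the RB protein able to hold E2F factors. CDKN2A also encodes ARF, which binds and blocks MDM2, from another first exon. CDKN3 is no CIP/KIP or INK4 protein but a phosphatase that acts on CDK2. MYC is known to repress CDKN1A and CDKN2B, and in colorectal cancer cells it is a target of beta-catenin and TCF.

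Values are log2 signals made by RMA, a method that corrects background, brings the arrays to a common distribution and joins the probes of a row. The median row of an array had a signal between 5.88 and 5.95, and the 7 genes all averaged above that. CTNNB1 itself had 10.94, 11.06 and 11.20 in the CTNNB1 siRNA arrays, against 11.80, 11.81 and 11.90 in the control siRNA arrays, a difference of -0.77 ± 0.10 log2 units (SE; limma, adjusted p = 0.00267). Epithelial markers, which stand for the labelled cell type, averaged above the array median for 10 of 11 genes, with KRT20 the exception. EPCAM averaged 11.80 with CTNNB1 siRNA and 11.78 with control siRNA, KRT8 13.58 and 13.57, and CDH1 9.04 and 8.92. KRT18 measured -0.29 ± 0.10 log2 units (SE; limma, adjusted p = 0.127), with groups apart. EPCAM, KRT8, CDH1, KRT18 and KRT20 were chosen after their values were seen. Of 11 epithelial markers 2 rose, beside 2.07% of all genes tested. CLDN4, a tight junction gene, rose by 0.61 ± 0.10 and ELF3, an epithelial ETS factor gene, by 0.48 ± 0.12 log2 units (SE). The call of ELF3 was lost without any 1 array (limma, adjusted p of 0.0548 to 0.184). Of the 11 differences 10 were above 0, with a median of 0.20, beside 0.006 over all genes tested. Among 15 leukocyte markers 4 averaged above the array median: LYZ, CD68, TYROBP and NKG7. CD68 averaged 9.93 with CTNNB1 siRNA and 8.98 with control siRNA, TYROBP 6.71 and 6.71, and NKG7 6.56 and 6.51. The rest were dimmer, with PTPRC at 2.67 and 2.58 and CD3E at 3.89 and 3.73. TYROBP, NKG7, PTPRC and CD3E were chosen after their values were seen. Of 15 leukocyte markers only CD68 rose, by 0.95 ± 0.14 log2 units (SE), and of 15 endothelial and fibroblast markers none was called by limma or had an unadjusted p under 0.05. The summed linear signal of the leukocyte list was 5592 to 5920 in CTNNB1 siRNA arrays and 5991 to 6482 in control siRNA arrays, a sum carried mainly by LYZ, the lysozyme gene, which averaged 12.07 with CTNNB1 siRNA and 12.36 with control siRNA (limma, adjusted p = 0.113). Of the 15 leukocyte differences 11 were above 0, and the part of this list in the results below was not tested.

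CDKN1A rose after CTNNB1 siRNA, and it was the one CDK inhibitor gene of 7 to pass the threshold. A gene is said to rise or fall only where limma's p, adjusted by Benjamini-Hochberg over all 18417 genes, was under 0.05, which 4.72% of genes were, 2.07% of them higher and 2.65% of them lower as shares of all genes tested. The 2 groups were also apart for CDKN2B, which was higher with CTNNB1 siRNA, and for CDKN3, which was lower, but neither passed. CDKN1B, CDKN1C, CDKN2A and CDKN2D had groups that overlapped. Groups that did not overlap were found for 10.8% of all genes in the higher direction and 15.2% in the lower, against 2 and 1 of the 7 members. The median log2 difference of the 7 was 0.13, beside 0.006 over all genes tested.

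**Figure D1:**
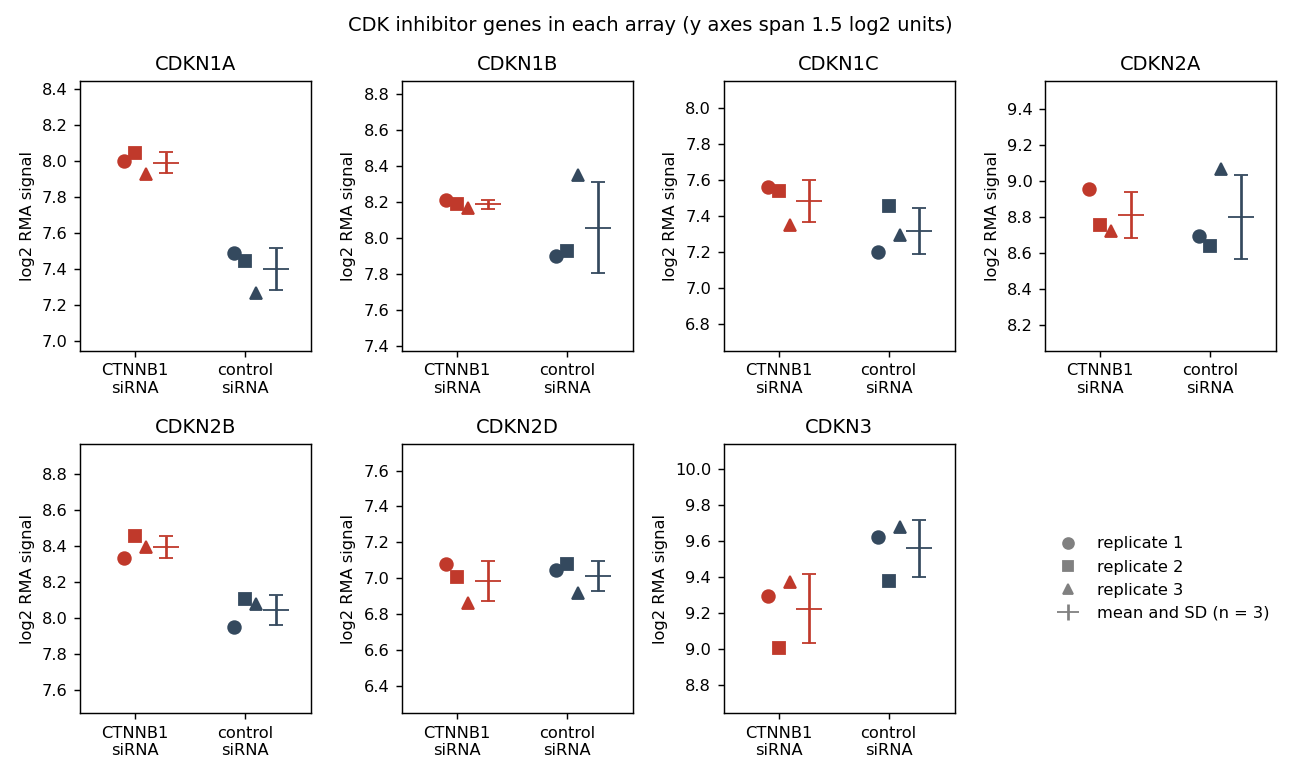
Log2 RMA signal of the 7 measured CDK inhibitor genes (y axes, each spanning 1.5 log2 units) in the 3 CTNNB1 siRNA arrays and the 3 control siRNA arrays, with the mean and SD of each group beside the points. The groups are apart for CDKN1A, CDKN2B and, by 0.007 log2 units, CDKN3, and control siRNA replicate 3 lies above the other controls for CDKN1B and CDKN2A.

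Among the CIP/KIP genes, CDKN1A, which stress signals and several differentiation factors switch on to stop the cycle, had signals of 8.0, 8.04 and 7.93 in the CTNNB1 siRNA arrays, against 7.49, 7.44 and 7.27 in the control siRNA arrays. The lowest CTNNB1 siRNA array lay 0.44 log2 units above the highest control, more than the range within either group (0.11 and 0.22). Means were 7.99 ± 0.06 with CTNNB1 siRNA and 7.40 ± 0.12 with control siRNA (SD, n = 3 each), a 1.51-fold rise with a 95% confidence interval of 1.29 to 1.76 (limma, adjusted p = 0.0102). By size it was the 247th largest rise of any gene. Without CTNNB1 siRNA replicate 1 the difference was 0.59 but the adjusted p was 0.0532, and in the other 5 such fits it was between 0.0210 and 0.0429. In bulk RNA, more signal per cell and more cells with the transcript cannot be told apart.

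CDKN1B, whose protein is held low in dividing cells mainly by ubiquitin-driven breakdown, had 8.21, 8.19 and 8.16 in the CTNNB1 siRNA arrays, against 7.90, 7.92 and 8.35 in the control siRNA arrays. The CTNNB1 siRNA values lay inside the range of the controls, where replicate 3 was the highest. The difference was 0.13 ± 0.13 log2 units (SE), with a 95% interval of 0.90-fold to 1.33-fold (limma, adjusted p = 0.624). Control siRNA replicate 3 bore on this value: without it the difference was 0.28 (limma, adjusted p = 0.228), and without control siRNA replicate 1 or 2 it was 0.05 or 0.06. CDKN1C, an imprinted gene active in development, had 7.56, 7.54 and 7.35 with CTNNB1 siRNA, against 7.20, 7.46 and 7.30 with control siRNA. Its groups overlapped too, with a difference of 0.17 ± 0.11 (SE) and an interval of 0.95-fold to 1.33-fold (limma, adjusted p = 0.435). These intervals leave room for increases of up to 1.33-fold, so neither gene is shown to be level.

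Among the INK4 genes, CDKN2B, a known target of TGF-beta signalling, showed the largest difference. It had 8.33, 8.46 and 8.40 in the CTNNB1 siRNA arrays, against 7.95, 8.10 and 8.08 in the control siRNA arrays. The groups were 0.23 log2 units apart, with ranges of 0.12 and 0.15 inside them. Means were 8.39 ± 0.06 and 8.05 ± 0.08 (SD, n = 3 each), which is 27.4% more signal with CTNNB1 siRNA, with a 95% interval of 9.96% to 47.7%. Limma's adjusted p was 0.0689 and its unadjusted p 0.00431. Of 11 other settings 6 left the gene short of the threshold, with an adjusted p of up to 0.165 when every row was tested. The rest put it past the threshold. There the adjusted p was 0.0231 with a trended and robust variance, 0.0461 with array weights and 0.0447 under cyclic loess. It was 0.0357 without the dimmest 25% of genes and 0.0144 without the dimmest 50%. Without any 1 of the arrays the adjusted p was between 0.107 and 0.252.

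CDKN2A had 8.96, 8.76 and 8.72 in the CTNNB1 siRNA arrays, against 8.70, 8.64 and 9.07 in the control siRNA arrays. The highest and the lowest of these 6 values were both controls. The difference was 0.01 ± 0.13 log2 units (SE), with an interval of 0.825-fold to 1.23-fold (limma, adjusted p = 0.976), and its sign turned under median centring and without some of the arrays. The row is annotated with transcripts of both p16 and ARF, so these products were not separated. CDKN2D, the INK4 gene known to cycle with S phase, had 7.08, 7.01 and 6.86 with CTNNB1 siRNA, against 7.04, 7.08 and 6.92 with control siRNA. The groups overlapped almost fully, at a difference of -0.03 ± 0.10 (SE) and an interval of 0.84-fold to 1.15-fold (limma, adjusted p = 0.906). Its sign turned without CTNNB1 siRNA replicate 3 or control siRNA replicate 2.

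CDKN3, which is transcribed mainly in late G2 and mitosis and marks dividing cells, had 9.29, 9.01 and 9.37 in the CTNNB1 siRNA arrays, against 9.62, 9.38 and 9.68 in the control siRNA arrays. The groups were separated by only 0.007 log2 units, between CTNNB1 siRNA replicate 3 and control siRNA replicate 2. Replicate 2 was the lowest array in both groups. The difference was -0.34 ± 0.13 log2 units (SE), or 0.79-fold with a 95% interval of 0.65-fold to 0.96-fold. Limma's adjusted p was 0.166 and its unadjusted p 0.0236, and it did not pass under any of the 11 other settings, where the adjusted p was 0.0521 to 0.350. With a replicate block limma's unadjusted p was 0.00497 and its adjusted p 0.0628.

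**Figure D2:**
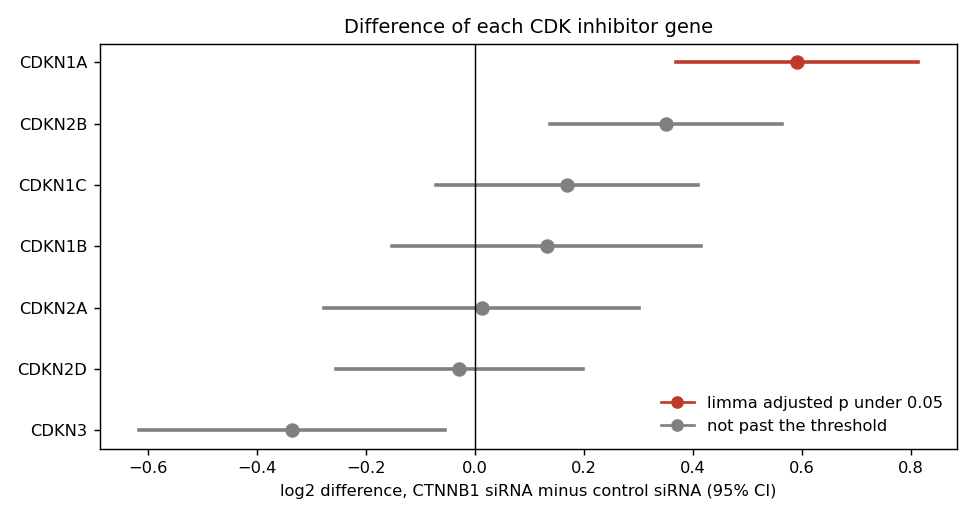
Log2 difference, CTNNB1 siRNA minus control siRNA (x axis), of each measured CDK inhibitor gene with its 95% confidence interval from limma, red where the adjusted p was under 0.05. CDKN1A is at 0.59, CDKN2B at 0.35 and CDKN3 at -0.34, and the intervals of the other 4 genes include 0.

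The rise of CDKN1A was also set against the difference of each other member inside the same arrays. CDKN1A is the member called in these arrays, which favours separate groups in such pairs, and no matching share over all genes is given here. CDKN1A gained on CDKN1B by 0.46 log2 units, on CDKN1C by 0.42, on CDKN2A by 0.58, on CDKN2D by 0.62 and on CDKN3 by 0.93, and in these 5 pairs the 2 groups did not overlap (exact permutation test, two-sided, p = 0.10 each, the smallest this design allows). Against CDKN2B the gain was 0.24 and the groups overlapped (exact permutation test, two-sided, p = 0.20). Adjusted over the 6 pairs these became 0.12 and 0.20 in the exact test, so 3 against 3 arrays cannot show a difference in response between the members by this test.

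**Figure D3:**
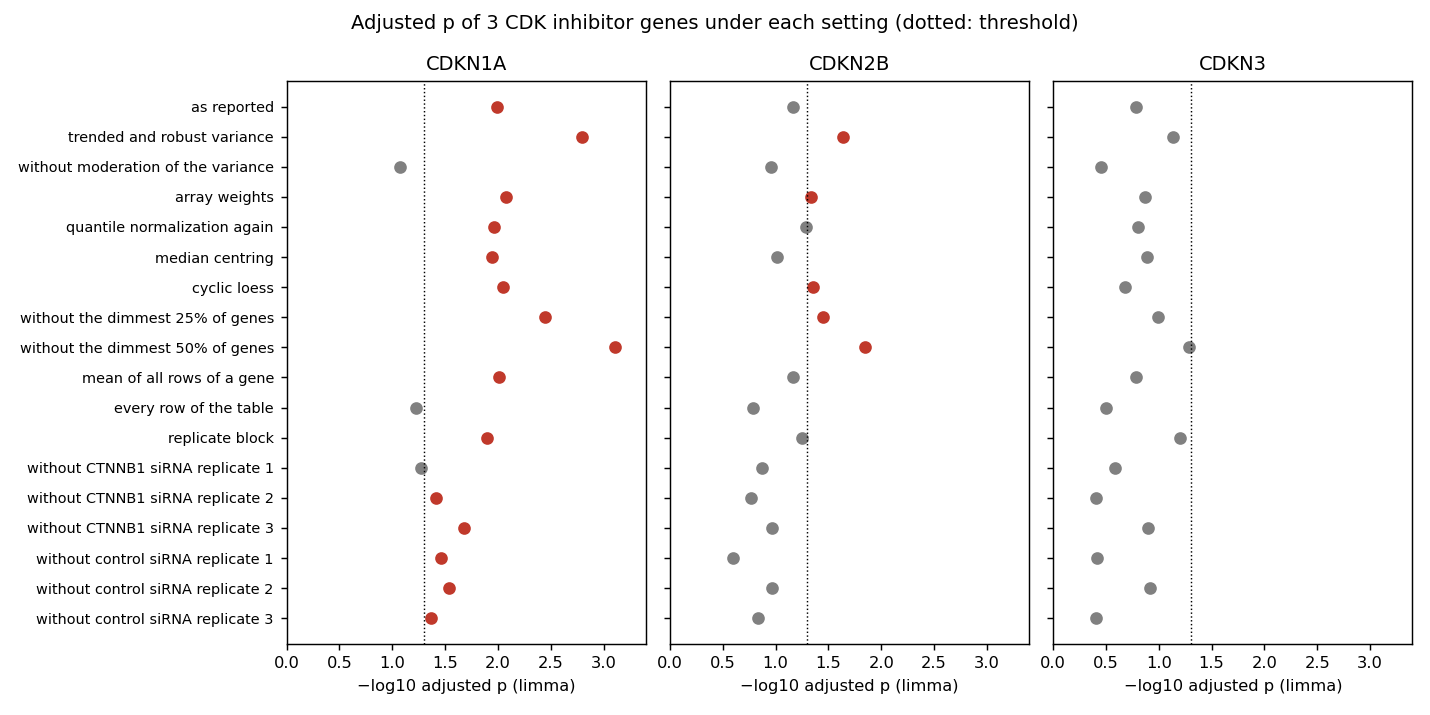
Adjusted p from limma as its negative log10 (x axes) for CDKN1A, CDKN2B and CDKN3 in the reported fit and under 17 other settings (rows), red where it was under 0.05, with the threshold dotted. CDKN1A passes in most settings, with 0.0854 without moderation of the variance and 0.0602 when every row of the table was tested, CDKN2B lies on both sides of the threshold, and CDKN3 stays under it.

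The promoter sequences of the 3 members with separate groups are shown, with that of CDKN2A from p16's start as the neighbour of CDKN2B. Windows and motifs were chosen with earlier results of these data known. Whether any factor acts through these motifs in these cells was not tested. The sequences are the RefSeq windows of GRCh38.p14, 250 bases before to 50 after an annotated start, printed 5′ to 3′ on the gene's strand. For CDKN1A, CDKN2B and CDKN2A capitals mark the GC box GGGCGG, bound by SP and KLF factors, and the CACC box CACCC, bound by KLF factors, on either strand. For CDKN3 capitals mark CCAAT, bound by NF-Y, the TCF/LEF core CTTTGA, and the CHR element TTTGAA of mitotic genes, on either strand. The first lies at chr6:36678464-36678763 (plus strand), the second at chr9:22009256-22009555 (minus strand), the third at chr9:21974808-21975107 (minus strand) and the last at chr14:54396757-54397056 (plus strand).
CDKN1A: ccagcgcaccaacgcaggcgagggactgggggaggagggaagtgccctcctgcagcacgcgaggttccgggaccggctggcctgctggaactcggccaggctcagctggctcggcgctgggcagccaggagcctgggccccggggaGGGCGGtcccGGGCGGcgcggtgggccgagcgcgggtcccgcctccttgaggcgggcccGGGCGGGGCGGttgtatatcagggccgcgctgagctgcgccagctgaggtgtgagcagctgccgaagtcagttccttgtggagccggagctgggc
CDKN2B: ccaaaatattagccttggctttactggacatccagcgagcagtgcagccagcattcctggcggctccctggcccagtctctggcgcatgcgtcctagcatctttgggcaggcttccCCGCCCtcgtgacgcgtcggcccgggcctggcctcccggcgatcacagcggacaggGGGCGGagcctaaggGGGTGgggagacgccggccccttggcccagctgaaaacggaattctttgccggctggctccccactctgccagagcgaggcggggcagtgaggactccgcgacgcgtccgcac
CDKN2A: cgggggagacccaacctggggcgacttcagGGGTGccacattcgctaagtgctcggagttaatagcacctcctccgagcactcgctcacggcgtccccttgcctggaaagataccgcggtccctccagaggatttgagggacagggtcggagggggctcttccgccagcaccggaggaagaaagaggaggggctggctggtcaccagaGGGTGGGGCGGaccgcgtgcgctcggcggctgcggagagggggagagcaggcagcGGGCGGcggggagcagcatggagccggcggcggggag
CDKN3: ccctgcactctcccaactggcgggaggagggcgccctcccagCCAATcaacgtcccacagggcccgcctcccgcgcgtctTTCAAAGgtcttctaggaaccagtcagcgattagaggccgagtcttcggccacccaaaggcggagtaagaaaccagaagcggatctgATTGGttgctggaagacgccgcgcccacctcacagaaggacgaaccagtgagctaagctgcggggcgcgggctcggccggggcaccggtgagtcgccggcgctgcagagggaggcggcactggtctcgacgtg

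The CDKN1A window held 4 GC boxes, at -104, -94, -45 and -40 bases from the start, the last pair overlapping by a base, and no CACC box. CDKN2B held 2 GC boxes, at -134 and -78, and 1 CACC box at -63. The p16 window of CDKN2A held 2 GC boxes, at -37 and 13, and 2 CACC boxes. CDKN3 held no GC box but 1 CACC box, at -120, which is not in capitals. Its CHR element at -170 and its TCF/LEF core at -169, both on the other strand, overlap and are offset by 1 base. Of all 35116 RefSeq windows 45.0% held a GC box, 59.9% a CACC box, 34.6% CCAAT, 12.9% the TCF/LEF core and 15.2% the CHR element. Of the 10 windows of CDK inhibitor genes, from 7 genes, 7 held a GC box, 6 a CACC box and 1, that of CDKN3, the TCF/LEF core. The E-box CACGTG, bound by MYC and MAX, was in 2 of them, both of CDKN2C, and in 7.26% of all windows, and the TATA box TATAAA was in none, beside 11.5% of all. CDKN1C had no window in the table. A match in letters is not a bound site.

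Regulators known to act on CDK inhibitor genes held 4 called genes of 28 measured, 3 higher and 1 lower, beside 4.72% called over all genes. KLF4, a zinc finger factor that activates CDKN1A in epithelium, had 8.64, 8.45 and 8.62 in the CTNNB1 siRNA arrays, against 7.52, 7.70 and 7.70 in the control siRNA arrays, a rise of 0.93 ± 0.10 log2 units (SE; limma, adjusted p = 0.000865). KLF6, a relative that also activates CDKN1A, had 7.87, 7.92 and 8.03, against 7.35, 7.57 and 7.58 with control siRNA, a rise of 0.44 ± 0.11 (SE; limma, adjusted p = 0.0429). This call was lost without any 1 of the 6 arrays, with adjusted p between 0.0702 and 0.183, and under median centring (0.0579).

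IRF1, an interferon-induced factor that can activate CDKN1A, had 8.54, 8.58 and 8.49 in the CTNNB1 siRNA arrays, against 7.83, 7.67 and 8.01 in the control siRNA arrays, a rise of 0.70 ± 0.11 (SE; limma, adjusted p = 0.00704). IRF1 was not called without moderation of the variance (limma, adjusted p = 0.102) or with every row tested (0.0552). MYC, the repressor of CDKN1A and CDKN2B named above, had 9.86, 9.68 and 9.75, against 10.38, 10.35 and 10.40 with control siRNA. It was lower by 0.61 log2 units, with an adjusted p of 0.00644 in limma. For each of KLF4, IRF1 and MYC no CTNNB1 siRNA array overlapped a control. SMAD3, which carries the TGF-beta signal to CDKN2B and was picked out after its value was seen, measured 0.45 ± 0.11 (SE; adjusted p = 0.0520). ZBTB17, the partner through which MYC represses both genes, measured 0.05 ± 0.09, EZH2, a Polycomb enzyme that silences CDKN2A, -0.06 ± 0.10, and SP1, a GC box factor, -0.02 ± 0.10 (SE), all chosen after their values were seen. Of the genes listed, TP63, BMI1, CBX8 and RNF2 had no row of their own and were not analysed here.

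The kinases and cyclins on which the inhibitors act held 1 called gene in each direction out of 22, or 9.09%, beside 4.72% of all genes tested. CDK6, the cyclin D kinase that INK4 proteins bind, had 8.42, 8.12 and 8.44 in the CTNNB1 siRNA arrays, against 9.35, 8.96 and 9.12 in the control siRNA arrays. It fell by 0.82 ± 0.13 log2 units (SE; limma, adjusted p = 0.00791), and the call held without any 1 array. That call was lost with every row tested (limma, adjusted p = 0.0665) and, as were all other pathway calls, without moderation of the variance (0.131). CCNE2, a cyclin E gene whose product activates CDK2, had 8.35, 8.27 and 8.49, against 7.61, 7.60 and 7.92 with control siRNA, a rise of 0.66 ± 0.12 (SE; limma, adjusted p = 0.0125) that was lost without CTNNB1 siRNA replicate 1 (0.0601) or control siRNA replicate 1 (0.0680). With every row tested CCNE2 was not called either (limma, adjusted p = 0.0765). CDK4 measured -0.22 ± 0.10 (adjusted p = 0.271), CDK2 0.12 ± 0.09 (adjusted p = 0.511) and CCND1, a cyclin D gene, -0.01 ± 0.10 log2 units (SE; adjusted p = 0.963), named after their values were seen.

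Among the ubiquitin ligases that break CDK inhibitors down, 1 of 14 was called, or 7.14%, beside 4.72% of all genes tested. CUL1, the scaffold of the SKP2 ligase that destroys p27, had 8.34, 8.24 and 8.57 in the CTNNB1 siRNA arrays, against 8.86, 8.78 and 8.97 in the control siRNA arrays. It fell by 0.49 ± 0.11 log2 units (SE; limma, adjusted p = 0.0378), a call that held without CTNNB1 siRNA replicate 3 and was lost without any of the other 5 arrays, with adjusted p of 0.0593 to 0.134. DDB1, of the CUL4 ligase that destroys p21 in S phase, measured -0.37 ± 0.09 (SE; adjusted p = 0.0501). SKP2 itself measured -0.09 ± 0.13 (SE; adjusted p = 0.752), and both were chosen after their values were seen. The list had a median of -0.18, beside 0.006 over all genes tested and -0.047 without the dimmest 50% of genes. All 14 listed genes averaged above the array median.

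Genes that lie downstream of the inhibitors or beside them held no calls in the reported fit. Of 13 pocket protein and E2F genes none was called by limma, and 1, E2F5, a repressor E2F gene, had an unadjusted p under 0.05, at -0.37 ± 0.10 (SE; adjusted p = 0.0682). E2F2, an activator E2F gene, measured 0.22 ± 0.11 (SE; adjusted p = 0.280). RB1, chosen after its value was seen, had a dim row, with 2.12 to 2.42 in CTNNB1 siRNA arrays and 2.34 to 2.62 in control siRNA arrays (adjusted p = 0.545). Of 28 E2F target and proliferation genes none was called by limma and 7 had an unadjusted p under 0.05, beside 20.3% of all genes tested. Of the 28 differences 22 were below 0, beside 48.8% over all genes, and the median was -0.14. Groups were apart for 11 of the 28 in the lower direction and 1 in the higher, beside 15.2% and 10.8% of all genes tested. Over all genes the median was 0.006, and -0.047 without the dimmest 50% of genes, while all 28 listed genes averaged above the array median. TYMS, thymidylate synthase, measured -0.41 ± 0.10 (SE; adjusted p = 0.0538) and TOP2A, a topoisomerase of dividing cells, -0.36 ± 0.11 (SE; adjusted p = 0.0814). Under 11 other settings TYMS stayed uncalled in 4, E2F5 in 7 and TOP2A in 8, and was called in the rest. With 1 array left out none of these genes was called. MKI67, a marker of cycling cells chosen after its value was seen, measured -0.08 ± 0.11 (adjusted p = 0.725). Of 13 other binding partners of CDKs or CDK inhibitors none was called by limma and 4 had an unadjusted p under 0.05, beside 20.3% of all genes tested. Among these 4 were NPM1, which binds ARF, at -0.30 ± 0.11 (SE; adjusted p = 0.145), and CABLES1, a CDK-binding protein gene, at -0.31 ± 0.11 (SE; adjusted p = 0.147). Over the 6 pathway lists 7 of 118 genes were called, or 5.93%, beside 4.72% of all genes tested.

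**Figure D4:**
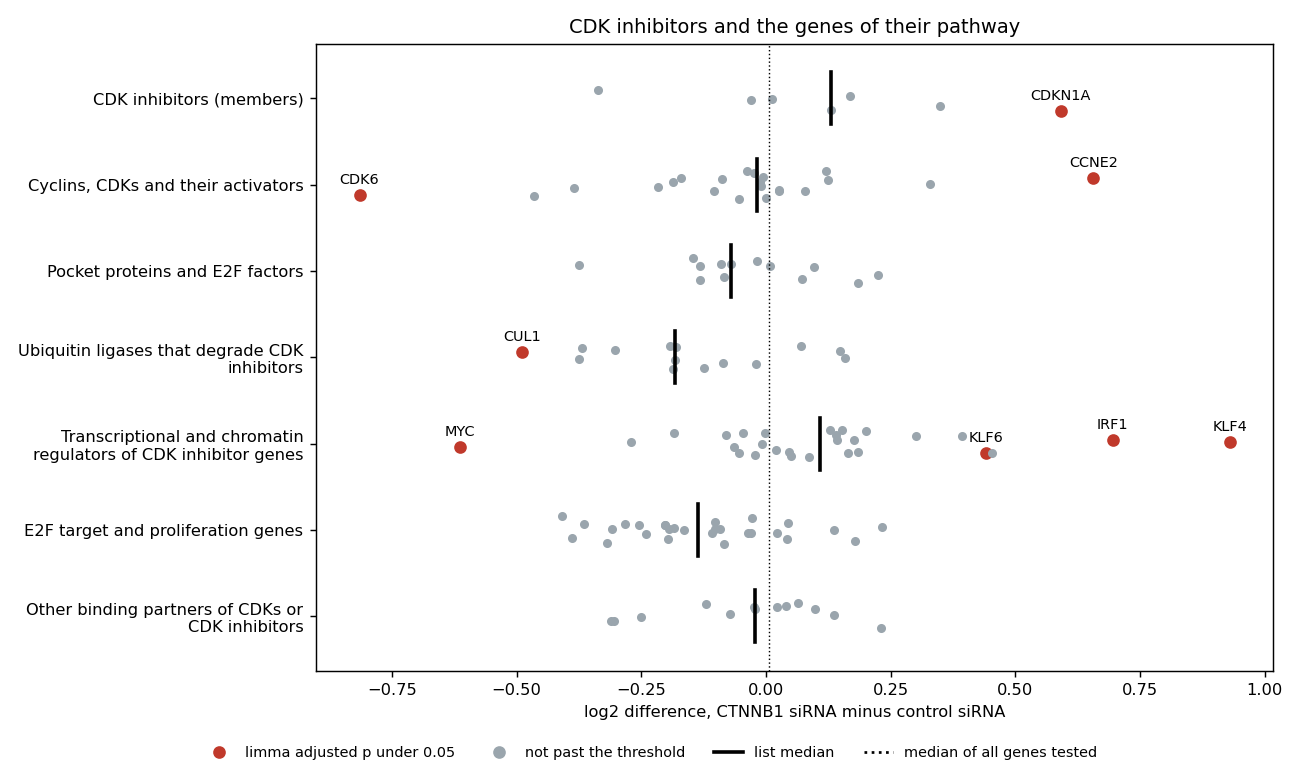
Log2 difference, CTNNB1 siRNA minus control siRNA (x axis), of each gene of the CDK inhibitor list and of the 6 pathway lists (rows), red and named where limma's adjusted p was under 0.05, with each list's median as a bar and the median of all genes tested dotted. Called genes are few in every list, and the list of E2F targets has a median of -0.14 with no called gene.

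CDKN2A and CDKN2B stand side by side on chromosome 9, a locus often deleted in cancer together with MTAP, a methionine salvage enzyme gene. Signals of CDKN2A between 8.64 and 9.07 in the 6 arrays, and of CDKN2B between 7.95 and 8.46, were above the array medians in both groups. MTAP had 6.92, 6.81 and 6.88 in the CTNNB1 siRNA arrays, against 7.32, 7.13 and 7.07 in the control siRNA arrays, lower by 0.30 log2 units (limma, adjusted p = 0.126). DMRTA1, on the other side, differed by 0.17 ± 0.14 and the antisense gene CDKN2A-AS1 by -0.01 ± 0.13 log2 units (SE). None of these genes passed the threshold, and the differences between them were not tested here.

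**Figure D5:**
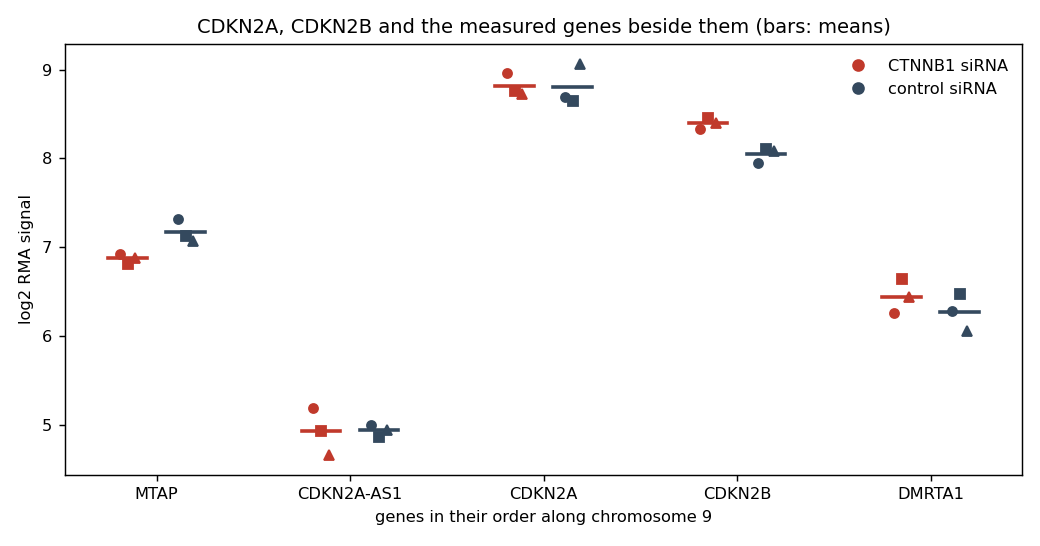
Log2 RMA signal (y axis) in the 3 CTNNB1 siRNA and 3 control siRNA arrays of CDKN2A, CDKN2B and the measured genes next to them, in gene order along the chromosome (x axis), with bars at group means. Groups are apart for MTAP and CDKN2B, and levels of different genes are not comparable because their probes differ.

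Around all 8 members the nearest 2 measured genes on each side came to 28 other genes, and none was called by limma. Of the 28, 10 had an unadjusted p under 0.05, a larger share than the 20.3% of all genes tested. Their differences ran from -0.44 log2 units for DDHD1, near CDKN3 with BMP4 between them, to 0.31 for RNF11, next to CDKN2C. Of the 28, 4 had groups apart in the higher and 9 in the lower direction, beside 10.8% and 15.2% of all genes tested. Beside CDKN1A, STK38 measured 0.22 ± 0.10 (adjusted p = 0.251), SRSF3 -0.08 ± 0.11 and CPNE5 0.15 ± 0.12 log2 units (SE).

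The genes whose signal followed CDKN1A most closely over the 6 arrays were ETV7, a repressor of the ETS family, RAB11B, a GTPase of recycling endosomes, and SLC2A3, a glucose transporter, with Pearson's r of 0.997, 0.995 and 0.994. These r values carry the difference between the groups, and 513 genes had an r above 0.9. ETV7 rose by 0.54 ± 0.10 (SE; limma, adjusted p = 0.0129), while RAB11B measured 0.36 ± 0.09 (adjusted p = 0.0520) and SLC2A3 0.18 ± 0.09 (SE; adjusted p = 0.308).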

How the data were processed

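The authors deposited log2 signals made with RMA, and Affymetrix Expression Console 1.1 is named, per the submitters' processing notes. Their range, 0.789 to 14.5, gave the log2 scale. The array annotation version they used is not given in the sources used here. RMA brings arrays to 1 distribution, so a shift shared by most genes would not show. Scanner intensities were not used, so calls against background are unknown, and the number of arrays limits the precision.

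Of 33297 rows, 19460 had exactly 1 gene symbol in GEO's platform annotation. The brightest row of a gene gave 18417 genes. These were fitted with limma 3.58.1 in R 4.3.3 (lmFit, eBayes, two-sided, group as the one term), and the fit was tested on simulated data. The CDK inhibitor genes, the pathway and marker lists, the motifs and the tests were chosen with earlier results of these data known. Lists are described by counts and medians, and a few genes and a motif are not reported here. Named are all members, CTNNB1, up to 6 called genes of a list or otherwise the 2 with the smallest p, neighbours, and the 3 genes most like a called member. Other names are said to have been chosen after their values were seen. Replicate arrays were not duplicates: the SD of their differences over genes was 0.203 to 0.262. Settings tried were 11 changes of variance, scaling, filter, row choice or replicate block, a threshold of 0.10, and leaving out each array. Replicate numbers were not used as pairs in the reported fit, and the labels do not say whether they pair the samples.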

Additional observations from a re-analysis of the deposited data

How the results depend on the processing

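Of 77 values of the 7 measured CDK inhibitor genes under 11 other settings, 69 kept their direction and their side of the threshold, as did 36 of 42 values with 1 array left out. Where a call changed, the cause was not tested. CDKN1A kept its difference of 0.59 but lost its call without moderation of the variance (adjusted p = 0.0854) and with every row tested (0.0602), and without single arrays it ran from 0.53 to 0.63. CTNNB1, at -0.77, was not called without moderation. CDKN2B was called at 0.35 with a trended and robust variance and without the dimmest 25% or 50% of genes, at 0.37 with array weights and at 0.40 under cyclic loess. CDKN2A turned to -0.027 under median centring and ran from -0.068 to 0.14 without single arrays, and CDKN2D from -0.078 to 0.032.

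The count of CDK inhibitor genes called, 1 as reported, was 2 under those 5 settings and at a threshold of 0.10, 0 without moderation and with every row tested, and 0 to 1 without single arrays. The number of genes called, 870 as reported, was 1622 with a trended and robust variance, 111 without moderation, 1483 and 1861 without the dimmest 25% and 50%, 195 with every row tested, 1668 at a threshold of 0.10, and 283 to 877 without single arrays. In the pathway lists 7 calls became 17, 0, 17, 23, 2 and 18 under these settings in the same order, 11 with array weights, and 4 to 7 without single arrays. Rises were 43.9% of calls as reported, 33.8% under median centring, 54.4% under cyclic loess, 67.6% without moderation, 70.8% with every row tested and 41.5% to 67.0% without single arrays.

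With a replicate block 14 pathway genes and 1177 genes in all were called, and no call of a CDK inhibitor gene changed (CDKN1A, adjusted p = 0.0128). Deviations of same-numbered arrays correlated at -0.019, 0.33 and 0.22, and CTNNB1 siRNA replicate 1 correlated best with control siRNA replicate 3 (0.078).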
